A study of Mus musculus with 2 samples.

Results

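The calcitonin peptides, their receptors, the receptor activity-modifying proteins (RAMPs) and parathyroid hormone-like peptide with its receptor were examined as 10 genes: Ramp1, Ramp2, Ramp3, Calcrl, Calcr, Adm, Calca, Calcb, Pthlh and Pth1r. All probes that carried these gene names and were not controls were taken, which gave 14 probes of 60 bases among 55681 on the array. The set was drawn up because Ramp3 and Pthlh were among the genes most lowered in the TTX culture, so every difference below is a description of the arrays and none is a test. A gene was measured when a probe was well above background on both arrays. That held for 7 of the 10 genes, among 14114 measured genes in all, and Calcrl, Calcr and Calcb were not measured.

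The RNA came from dissociated hippocampal neurons of ICR mouse embryos (embryonic day 16.5), harvested at 12 days in vitro and hybridised to single-colour Agilent arrays. The control culture carried no drug label, and the other culture was kept for 2 days in tetrodotoxin (TTX), which blocks voltage-gated sodium channels and so stops action potentials. The dose of TTX is given as 2 µM by the series' design and as 2 mM by the sample's label, and the files do not settle it. Both cultures grew in 5.5% serum with 5 µM Ara-C, an inhibitor of dividing glia, added 2 days after plating. Each group had 1 array, so no difference had a replicate check and no p-value was computed. Errors given with a difference are those that the Feature Extraction software assigns to the spots, propagated to the log2 scale, and they hold no spread between cultures. As another measure, the 261 probes printed in at least 10 spots gave a pooled SD of the log2 difference between spots of 0.15, from 0.27 in the dimmest of 5 signal classes to 0.06 in the brightest. In bulk RNA, fewer cells of a type and less RNA per cell cannot be told apart.

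RAMPs are small membrane proteins that pair with the class B G protein-coupled receptors CALCRL and CALCR. CALCRL needs a RAMP to reach the cell surface, whereas CALCR reaches it alone and binds calcitonin, and in both the RAMP changes which peptides are bound. CALCRL with RAMP1 forms the receptor for calcitonin gene-related peptide (CGRP), and CALCRL with RAMP2 or RAMP3 forms adrenomedullin receptors, while RAMPs turn CALCR into amylin receptors. Parathyroid hormone-like peptide, encoded by Pthlh, acts on PTH1R, a class B receptor that it shares with parathyroid hormone and that signals through Gs and cyclic AMP. In rat cerebellar granule neurons in culture, Pthlh is known as a gene raised by depolarisation.

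The RAMPs did not move together. Ramp3 was far lower in the TTX culture, Ramp1 was lower by about the fold used as the size rule, and Ramp2 was higher. Pthlh was lower by nearly as much as Ramp3, whereas Adm, Calca and Pth1r differed by less than 2-fold. Counted at 2-fold, 3 of the 7 measured genes were lower (Ramp1, Ramp3 and Pthlh) and 1 was higher (Ramp2). Of the 14114 genes, 3.38% were lower and 2.05% higher by that rule (5.43% in either direction), and since the set was chosen on this contrast its counts are not read against those shares. A 1.5-fold rule gave the same 3 lower and 1 higher (8.67% and 7.6% of all genes), and a 3-fold rule gave 2 lower and 0 higher (1.14% and 0.659% of all genes). The median log2 difference of the 7 was -0.21, beside 0.01 over all measured genes.

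**Figure D1:**
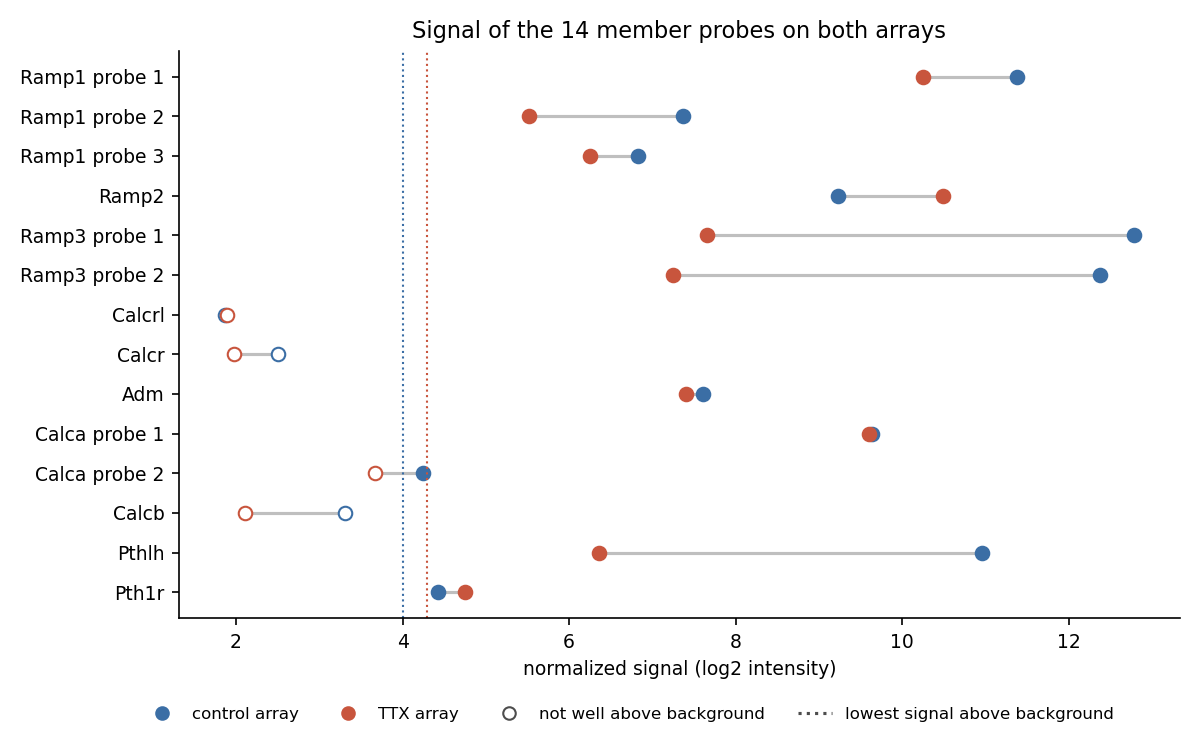
Quantile-normalised log2 signal (horizontal axis) of each of the 14 probes on the control array (blue) and the TTX array (red), 1 spot per probe and array; open circles were not well above background and dotted lines mark the lowest log2 signal above background on each array. The long bars are the probes of Ramp3 and Pthlh, and the circles of Calcrl, Calcr and Calcb are open on both arrays.

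Ramp3, which pairs with CALCRL to form an adrenomedullin receptor, had a normalised signal of 7057 in the control culture and 201 in the TTX culture at its brighter probe. That is a log2 difference of -5.13 with a spot error of 0.21, or 35.0-fold. Before any normalisation the mean pixel signal of the spot was 7511 over a local background of 59 on control, and 291 over 61 on TTX, so the TTX signal was low but still well above background. The other Ramp3 probe gave 5324 and 152, a log2 difference of -5.13 with an error of 0.21. These probes are not independent readings of the transcript: they lie at chr11:6577416-6577475 and chr11:6577424-6577483 (mm9, plus strand), and 52 of their 60 bases are the same. Their spots were nevertheless far apart on the array, in rows 190 and 36 of 384, and the log2 differences at the spots were equal within 0.01. The shared stretch shows where on the transcript both probes sit, and 30 bases of it (chr11:6577441-6577470, mm9, plus strand) are given here with ATTAAA in capitals, a common variant of the polyadenylation signal.
Ramp3 probes, shared stretch: ctgatgtcagttctttttgATTAAAgtgtc
Of all 55681 probes on the array, 3.95% hold ATTAAA on the printed strand. A change anywhere else in the Ramp3 transcript would not have been seen by these probes.

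Ramp1, the partner that makes CALCRL a CGRP receptor, was read by 3 probes that did not overlap in sequence and did not give 1 value. The brightest probe, for transcript variant 1, spans 26256 bases of the genome at chr1:93093453-93119708 (mm9, plus strand) and therefore crosses intron sequence. Its signal was 2663 on control and 1216 on TTX, a log2 difference of -1.13 with an error of 0.20, or 2.19-fold. The next probe, also for variant 1 but farther downstream at chr1:93121428-93121487, had signals of 166 and 45.9 and a log2 difference of -1.85 (error 0.24). The last probe, for variant 3, lies at chr1:93103294-93103353, inside the interval that the brightest probe spans, and had signals of 114 and 76.1 with a log2 difference of -0.58 (error 0.22). All 3 probes were lower in TTX, both variant 1 probes by at least 2-fold and the variant 3 probe by 1.49-fold. The log2 differences of the variant 1 downstream probe and the variant 3 probe were 1.27 apart, more than their errors, though both are in the dimmest signal class, where the spot SD was 0.27.

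Ramp2, the other adrenomedullin receptor partner, went the opposite way. Its probe at chr11:101109501-101109560 (mm9, plus strand) had a normalised signal of 599 on control and 1434 on TTX, a log2 difference of 1.26 with an error of 0.20, or 2.39-fold higher in TTX. The mean pixel signal was 726 and 1511 over a local background of 58 on both arrays, so the difference was present before normalisation. With the other RAMPs lower, Ramp2 was the highest of the 7 by difference, and it was at rank 159 from the highest of the 14114 measured genes.

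The receptors that RAMPs escort were near the limit of the arrays. Calcrl, the core of the CGRP and adrenomedullin receptors, had normalised signals of 3.64 on control and 3.71 on TTX, against a lowest signal above background of 16.0 and 19.6. Calcr, the calcitonin and amylin receptor, had 5.66 and 3.93. Neither was well above background on either array, and their pixel means lay close to those of local background (69.7 over 59 and 76.0 over 61 for Calcrl). No fold is given for them, and a probe that did not detect its transcript does not show that the transcript was absent. Pth1r, the receptor of the Pthlh peptide, was measured but dim, with signals of 21.4 on control and 27.0 on TTX. Its log2 difference of 0.33 was smaller than its error of 0.42.

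Among the ligands, adrenomedullin (Adm), a vasodilator peptide, had signals of 194 on control and 169 on TTX. Its log2 difference of -0.21 equalled its error of 0.21 to 2 decimals. Calca is spliced to messages for calcitonin or for alpha-CGRP, and the array has a probe for each of its named transcript variants 1 and 2. The variant 2 probe at chr7:121775204-121775263 (mm9, minus strand) had signals of 798 and 777, a log2 difference of -0.04 with an error of 0.20. The variant 1 probe, upstream on that strand at chr7:121776948-121777007, was above background on the control array only, with signals of 18.96 and 12.7. The bound that these allow is under 1, so no fold is given. Calcb, which encodes beta-CGRP, was not well above background on either array (9.93 and 4.32). Thus of the calcitonin family ligands, Adm and the variant 2 message of Calca were the ones measured, and both stayed within 2-fold.

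Pthlh, the secreted peptide related to parathyroid hormone, had a normalised signal of 1994 in the control culture and 82.3 in the TTX culture at its single probe, chr6:147200926-147200985 (mm9, minus strand). The log2 difference was -4.60 with an error of 0.22, or 24.2-fold, and it was -3.78 with normexp background correction. The mean pixel signal was 2016 over a background of 58 on control and 159 over 60 on TTX. Beside this lower ligand, the signal of its receptor Pth1r was 1.26-fold higher, within its error.

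**Figure D2:**
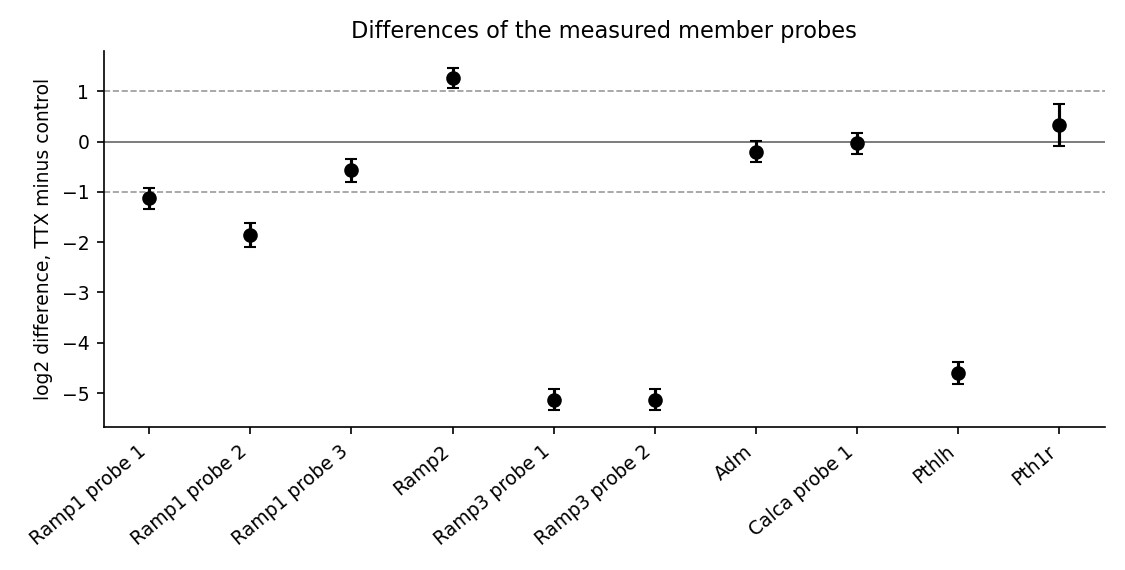
Log2 difference, TTX minus control (vertical axis), of the 10 probes well above background on both arrays, with bars for the Feature Extraction error of that difference; the dashed lines mark 2-fold. Both Ramp3 probes lie at -5.13 and Pthlh at -4.60, Ramp1 spreads from -1.85 to -0.58 over its probes, and Ramp2 stands alone above 1.

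Ranked by log2 difference from the lowest, Ramp3 was at rank 2 and Pthlh at rank 5 of the 14114 measured genes, and Ramp1 was at rank 364. The order at the bottom was Arc (-5.19), Ramp3 (-5.13), Nr4a1 (-5.10), Adcyap1 (-4.83) and Pthlh (-4.60), and the next gene was Vgf (-4.36). The steps between Arc, Ramp3 and Nr4a1 were smaller than the spot error of Ramp3, so their order is not resolved. Likeness of pattern can be judged over 2 arrays only, as the distance between genes in the plane of both log2 signals. That distance draws on the values that chose the set and also depends on how bright each probe is. A gene with a similar difference at a dimmer probe, such as Adcyap1, is therefore not among the nearest, and the names are a description only. Nearest to Ramp3 were the nuclear receptor Nr4a1 (distance 0.14, signals of 6524 and 191), the cytoskeletal Arc (0.90), the peptide precursor Grp (1.23), the transcription factor Egr4 (1.501) and the nuclear receptor Nr4a2 (1.65). Nearest to Pthlh were Fam163a (0.46, signals of 1790 and 111), the pentraxin Nptx2 (1.04), the G protein subunit Gng4 (1.104), the myosin Myh8 (1.13) and the receptor ligand Alkal2 (1.28). Gng4 had a further probe at -1.33 against -4.12 at its brightest.

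**Figure D3:**
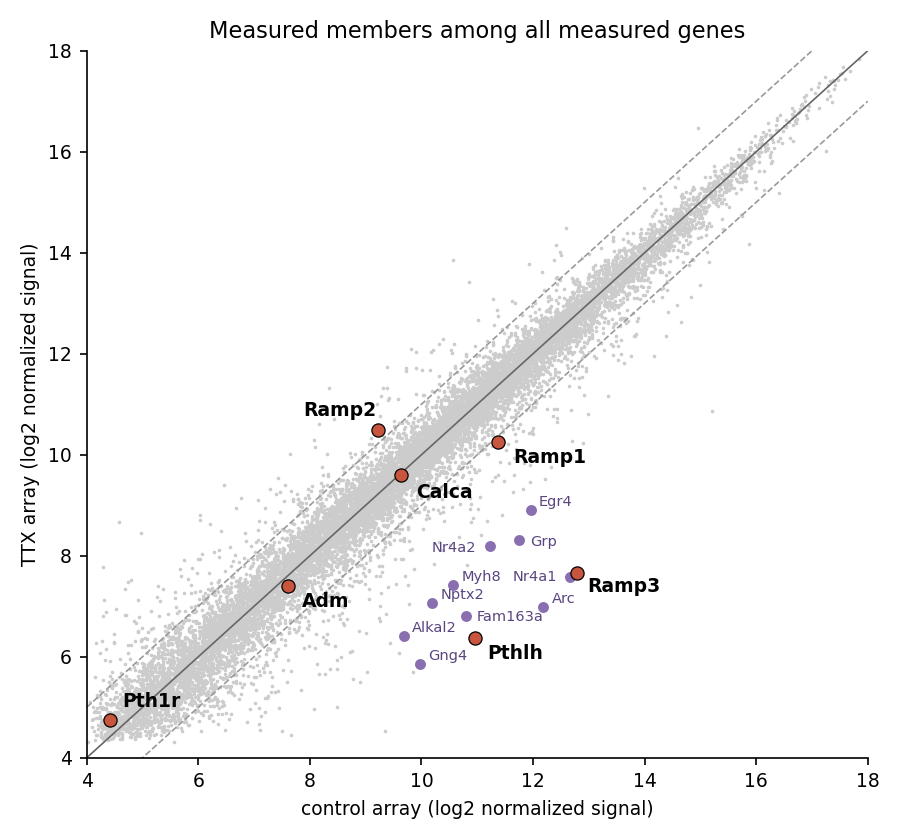
Log2 normalised signal of 14114 measured genes (grey) on the control array (horizontal) and the TTX array (vertical), with the 7 measured genes of the set in red and the genes nearest to Ramp3 or Pthlh in purple; the solid line is equality and the dashed lines are 2-fold. Ramp3 and Pthlh lie far below the line among few other genes, Ramp2 is above it, and Adm, Calca and Pth1r are between the dashed lines.

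Promoter windows were compared because Ramp3 and Pthlh were both far lower in TTX and Calca was not. The RefSeq table (GRCm38.p6) holds windows of 300 bases, 250 before to 50 after a start site, for 8 of the 10 genes (all but Ramp2 and Calcb), 11 windows in all. A set of 7 short motifs was searched on both strands: the cyclic AMP response element (CRE, TGACGTCA), its core (TGACG, also part of the CRE), AP-1 (TGANTCA), EGR (GCGNGGGCG), the hypoxia core (ACGTG), the GC box (GGGCGG, which can overlap EGR) and the TATA motif (TATAAA). The windows of Ramp3 and Pthlh are shown with GC boxes in capitals and, in Pthlh, the overlapping EGR matches too. The Calca window is shown with the CRE core in capitals.
Ramp3 (chr11:6658283-6658582, plus strand): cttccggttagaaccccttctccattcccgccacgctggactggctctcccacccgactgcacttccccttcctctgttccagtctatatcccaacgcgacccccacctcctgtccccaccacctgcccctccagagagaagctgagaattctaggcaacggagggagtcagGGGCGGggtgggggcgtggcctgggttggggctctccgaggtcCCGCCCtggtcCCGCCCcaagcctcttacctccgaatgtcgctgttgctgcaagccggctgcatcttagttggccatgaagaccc
Pthlh (chr6:147263964-147264263, minus strand): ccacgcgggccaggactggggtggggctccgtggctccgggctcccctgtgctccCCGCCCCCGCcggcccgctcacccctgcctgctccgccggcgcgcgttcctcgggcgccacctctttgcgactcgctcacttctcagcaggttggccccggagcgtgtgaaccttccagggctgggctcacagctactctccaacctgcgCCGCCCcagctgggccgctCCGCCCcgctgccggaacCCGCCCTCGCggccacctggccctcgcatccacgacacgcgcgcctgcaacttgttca
Calca (chr7:114636308-114636607, minus strand): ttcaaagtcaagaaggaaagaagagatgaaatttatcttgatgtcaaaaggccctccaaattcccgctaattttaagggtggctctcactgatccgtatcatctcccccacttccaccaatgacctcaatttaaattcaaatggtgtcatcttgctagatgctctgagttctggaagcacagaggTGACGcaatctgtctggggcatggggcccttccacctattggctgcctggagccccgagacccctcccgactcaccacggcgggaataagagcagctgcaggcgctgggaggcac
Ramp3 held 3 GC boxes, a number reached by 10.71% of all 32851 windows, and none of the other 6 motifs. Pthlh held 4 GC boxes, a number reached by 5.49% of windows, and 2 EGR matches, where 0.813% of windows have at least 2. Ramp1, which was also at least 2-fold lower, held 0 GC boxes and 0 EGR matches, and its window had 55.7% GC. Pth1r, which did not pass 2-fold, also held 4 GC boxes in 1 of its 3 windows, and Adm, within 2-fold, held 1. EGR matches were in 5.55% of all windows, GC boxes in 35.7%, the hypoxia core in 19.6% and the TATA motif in 13.6%. The CRE core was in neither the Ramp3 nor the Pthlh window. It was in the windows of Ramp1 (1 match, 11 bases into the transcript), Calca (1 match, 65 bases upstream), both windows of Calcr and 1 of the 3 windows of Pth1r, and in 20.8% of all windows. The full CRE, which 1.79% of windows hold, and AP-1 (7.81%) were in none of the 11. The Pthlh and Ramp3 windows were rich in GC, at 74% and 63.7%, beside a median of 52.7% over all windows. GC boxes and EGR matches are both motifs of GC-rich sequence, and the shares over all windows were not matched for GC content. GC content was also above that of Ramp3 in windows of genes that were not lower or not measured, at 70.0% in 1 window of Calcr and 68.0% and 69.3% in those of Pth1r. A match is only a match of letters, and other sequence around these genes was not examined.

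Genes around these pathways were counted in 6 lists, and the counts past 2-fold stand beside 3.38% lower and 2.05% higher over all measured genes. Of 12 other class B receptors, 4 were measured: the corticotropin-releasing hormone receptor Crhr1 was at -2.16 (and -2.53 at another probe), Vipr1 at -1.03 (-0.57 at another probe), the PACAP receptor Adcyap1r1 at 1.16 and the glucagon receptor Gcgr at 0.15. So 2 were at least 2-fold lower and 1 at least 2-fold higher, with a median of -0.44. Of 14 other class B ligands, including amylin (Iapp) and adrenomedullin 2 (Adm2), 5 were measured, with a median of -0.52. Adcyap1, the PACAP precursor, was the 1 at least 2-fold lower (-4.83, signals of 655 and 23.0), Vip was at -0.98, Sct at -0.52 and Crh at 0.77. Iapp (42.3 and 8.44) and Pth2 (38.7 and 17.4) were above background on control only and are not in these counts. Their bounds take the lowest signal above background on the TTX array (19.6) as a floor. Set against that floor, Iapp was 2.15-fold and Pth2 1.97-fold lower in TTX, from dim signals and without an error. The floor is not a detection limit for every probe, since a class B receptor with a signal of 23.9 on TTX was not well above background there. Among the receptors above background on control only, the highest bound was 1.90, for Gipr. Adm2 was above background on neither array (13.99 and 3.97).

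Peptide maturation genes had a median of -0.72 over 8 measured genes. Most of them encode enzymes that cut or amidate the precursors of CGRP, adrenomedullin and Pthlh peptides among many others. Scg5 (-0.72) and Pcsk1n (0.33), also in this list, do not encode such enzymes. The prohormone convertases Pcsk1 (-3.21) and Pcsk2 (-1.57) were at least 2-fold lower, the amidating enzyme Pam was at -0.98, and the convertase Pcsk5 was higher (1.36). In the list of RAMP accessory and clearance proteins, 11 of 13 were measured and the median was 0.03. The peptidase Mme was 2-fold lower or more (-1.28, from signals of 64.6 and 26.6), the adrenomedullin and chemokine scavenger Ackr3 was at 0.68, and Nsf and Ece1 were at -0.21 and -0.29. Downstream of the receptors, 20 of 22 Gs and cyclic AMP genes were measured with a median of -0.04. The adenylyl cyclase Adcy1 was the only one of them past 2-fold (-1.74, signals of 7731 and 2316), with Adcy2 at -0.71, Adcy3 at -0.57 and Adcy6 at 0.56. Among 12 measured hypoxia-inducible genes, the group to which Adm belongs, the median was -0.24, with Ankrd37 at -1.91, Ndrg1 at 1.80, Bnip3 at -0.70 and Pdk1 at 0.60. All these medians stand beside 0.01 for all measured genes and carry no test.

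**Figure D4:**
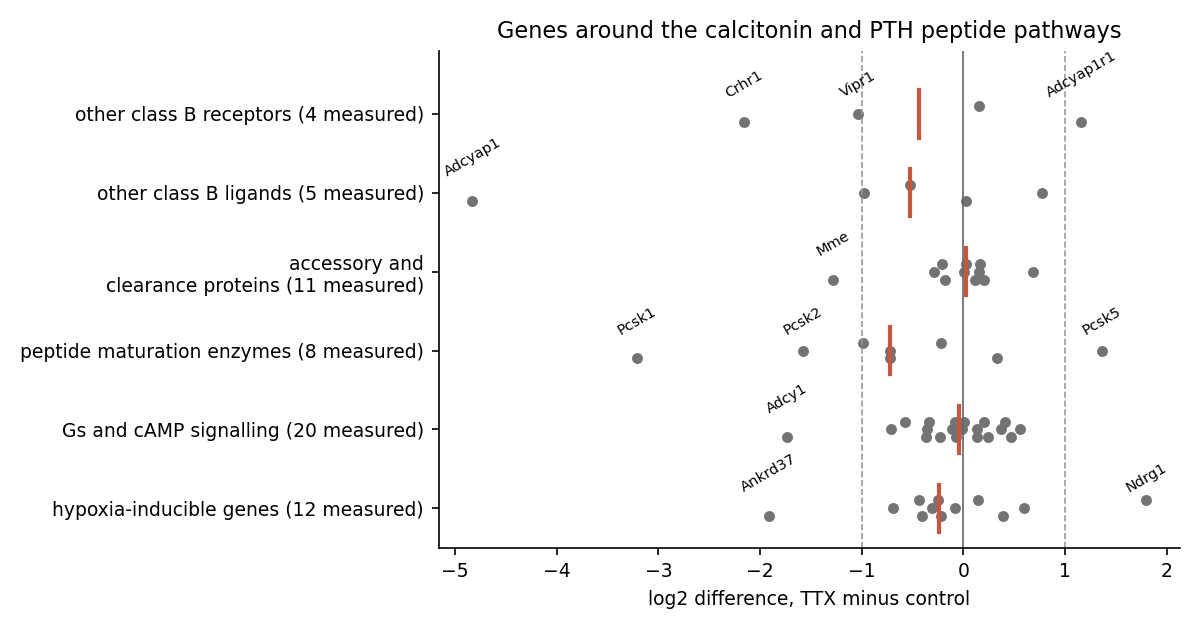
Log2 difference, TTX minus control (horizontal axis), of each measured gene (grey points, offset vertically to be seen) in 6 lists around the calcitonin and parathyroid hormone peptide pathways; red bars are list medians, dashed lines mark 2-fold and genes past it are named. Adcyap1 and Pcsk1 lie farthest to the left, and 19 of the 20 Gs and cyclic AMP genes are inside 2-fold.

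Signals of marker lists of cell types were summed beside these values, and such a sum is not a count of cells. All 8 neuron markers were measured, and their summed signal was 212398 on control and 206173 on TTX. The interneuron sum was 74757 and 49267 (6 of 6 measured, 5 below 0 and 1 above). Npy had the largest difference of these (21915 and 7236). Gad1 (10459 and 6427), Slc32a1 (27369 and 21721), Sst (7098 and 6190) and Gad2 (7581 and 7024) were also lower, while Dlx1 was higher (335 and 669). The excitatory neuron sum was 25521 and 21338 (6 of 6 measured, 4 below 0 and 2 above). Astrocyte markers summed to 11672 and 17565, with 7 of 8 measured and 6 of those above 0, and mural cell markers to 2548 and 3299, with 6 of 8 measured and all 6 above 0. The fibroblast sum was 898 and 1552 (5 of 7 measured), the microglia sum 19216 and 21359 (6 of 8), the oligodendrocyte lineage sum 2105 and 2461 (5 of 8) and the choroid plexus sum 317 and 422 (3 of 5). Most of the microglia sum was Itgam (18151 and 20323). Csf1r followed (718 and 558), and the log2 differences of its 3 measured probes ran from -1.08 to 0.26. Tyrobp (167 and 252), C1qb (71.1 and 93.0), C1qa (64.5 and 82.9) and Aif1 (22.5 and 21.7) were dimmer than Csf1r on both arrays. The fibroblast marker with the largest difference was Fbln1 (109 and 566). Endothelial markers, of the cell type in which CALCRL and RAMP2 are best known, summed to 10624 and 6953, and 5 of 9 were measured. Most of that sum was Egfl7 (8024 and 4729) and Kdr (2445 and 2071), while Pecam1 (43.9 and 37.9), Flt1 (62.5 and 57.6) and Esam (23.96 and 25.1) were dim. The other 4, Cldn5 (3.81 and 3.83), Tek (3.78 and 3.79), Cdh5 (4.59 and 5.80) and Emcn (12.3 and 19.6), were not well above background on either array. Kdr and Flt1 each had a further probe that was higher in TTX, with log2 differences of 0.26 and 0.22. Each sum adds signals of different probes, so its brightest members weigh most, and it takes in the listed genes that were not measured. The part of these marker differences in the values of Ramp1, Ramp2, Ramp3 and Pthlh was not tested.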

How the data were processed

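Data of 1 control and 1 TTX array were used, grouped by sample title, since the treatment text is the same for both. Both arrays were on 1 slide. Per the file headers, the authors' files hold spot intensity from Agilent Feature Extraction 10.7.1.1 (9.5.1.1 in the submitters' processing notes), background-subtracted, detrended and linear, with probe coordinates on mm9. The deposited value table also holds linear intensity, quantile normalised as the design text states, and its probe differences correlated at 0.9999 with those computed here over 27398 probes. Here the processed signal of 59305 spots was quantile normalised, put on log2, and averaged over unflagged spots (131 and 170 flagged, 0 saturated). A measured probe had a share of spots well above background of 0.5 or more on each array (true of 54.2% and 52.2% of spots), and a gene took its brightest measured probe. Genes were named through RefSeq accessions or symbols (GRCm38.p6) for 31399 probes. A bound sets the bright signal against the higher of the dim signal and the lowest signal above background.

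The size rule was 2-fold. Named genes were the 10 genes, up to 4 per list with the largest differences, and the 5 nearest to Ramp3 and to Pthlh. Vgf, Iapp, Pth2, Gipr, Adm2, Scg5, Pcsk1n, the cell type markers and the chromosomal neighbours fall outside this rule and were named after their values were seen. The members and lists were chosen with earlier results of these data known. Steps were tested on simulated data. Tools were Python 3.11.15, pandas 2.3.3 and limma 3.58.1. Alternatives were 75th percentile, spike-in or no scaling, normexp with offset 50, the deposited values, no filtering or a stricter one (mean signal above percentile 25), averaging a gene's probes, and 1.5-fold and 3-fold rules. Protein sequences were not used here.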

Additional observations from a re-analysis of the deposited data

How the results depend on the processing

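The differences of Ramp1, Ramp2, Ramp3, Adm, Calca, Pthlh and Pth1r kept their sign under every alternative that gave a value, and moved by more than the spot error in 2 cases. With normexp background correction Ramp3 was at -4.71 and Pthlh at -3.78, an alternative whose offset shrinks differences of dim signals by construction. Ramp1 ranged from -1.29 to -1.06, Ramp2 from 1.13 to 1.26, Adm from -0.22 to -0.16, Calca from -0.16 to -0.01 and Pth1r from 0.06 to 0.47, and the stricter filter left Pth1r out. The count of the set's genes at least 2-fold lower was 3, with 4 under no filter (Calcb added) and 2 at 3-fold. The higher count was 1, and 0 at 3-fold. Over all genes 477 were lower and 290 higher at 2-fold. These were 1224 and 1073 at 1.5-fold, 161 and 93 at 3-fold, 301 and 146 with normexp, 1381 and 1070 with no filter, and 304 and 157 with the stricter filter, which tests fewer genes. With scaling on 7 spike-in probes the median over all genes was -0.09 in place of 0.01. The median of other class B ligands was -0.52 over its 5 measured genes. It was -0.98 with the stricter filter, which leaves dim genes out, -0.75 with no filter, which takes more genes in, and -0.21 with normexp. The scaling between arrays also moved this median, to -0.37 with 75th percentile scaling and -0.37 with no scaling. Medians near 0 crossed it: Gs and cyclic AMP genes ranged from -0.16 to 0.00 and accessory proteins from -0.03 to 0.14. No paired analysis was possible because each group had 1 array. Probes near background (Pth1r, and those of Calcrl, Calcr and Calcb) limit what can be said of them.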

Other observations

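The genes that lie next to the measured members on the chromosomes were picked by position alone, the nearest measured protein-coding genes of the RefSeq table, up to 2 on each side. There were 28 of them, and 1 was past 2-fold, where 5.43% of all measured genes were: Adcy1, the adenylyl cyclase, which is the nearest measured neighbour of Ramp3 on one side and was lower in TTX (-1.74). The other neighbours of Ramp3 were the mitochondrial Tbrg4 (-0.35), Nacad (0.74) and the IGF-binding Igfbp3 (0.37). The neighbours of Pthlh, namely Klhl42, Mrps35, Ccdc91 and Ergic2, lay between -0.66 and 0.03. Around Ramp2 they lay between -0.08 and 0.35, and around Ramp1 between -0.66 and 0.03. The region next to Ramp3 was singled out after its values were seen, and nothing about it was tested.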
